A study of Mus musculus with 12 samples.

Results

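Nectins are immunoglobulin-like adhesion molecules that bind each other between neighbouring cells, and the classical cadherins are calcium-dependent adhesion molecules of the same junctions. The actin-binding adaptor afadin, encoded by Afdn, holds nectins to the cytoskeleton, and catenins do the same for cadherins. In the mouse olfactory epithelium, odour-sensing neurons and the sustentacular cells that support them form a mosaic at the apical surface. The neurons carry Nectin2 and N-cadherin (Cdh2), the sustentacular cells carry Nectin3, N-cadherin and E-cadherin (Cdh1), and binding between unlike nectins contributes to the mosaic. Described here are the 7 genes of this system on the array, namely Nectin1, Nectin2, Nectin3, Nectin4, Cdh1, Cdh2 and Afdn, out of 28944 experimental probe sets. They were taken by symbol and chosen from these arrays with the lower Nectin1 signal of H2be-KO already known. Every difference between genotypes in these 7 genes is therefore a description and carries no test.

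H2be-KO mice carry an allele in which the coding sequence of H2be, a histone H2B variant gene of olfactory neurons, was replaced by a sequence for a membrane-tagged mCherry protein, in a line established by crosses to C57Bl/6. WT mice carry the intact gene, and all animals were 6 months old. The series is described as an equal mixture of both sexes, although a legend in the study calls the 6-month array mice male, and no sex is labelled per array. Whole main olfactory epithelium (MOE) was dissected, tissue of a pair of mice went into each sample, and 6 samples per genotype were measured on whole-transcript Affymetrix arrays (Mouse Gene 1.0 ST). Values are signals on a log2 scale, normalised across arrays, so that a difference of 1 is a doubling.

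The arrays had median signals of 7.84 to 7.90 and correlated at 0.951 to 0.985 over the probe sets tested. The H2be probe set, annotated as H2bc21, averaged 11.65 ± 0.12 in H2be-KO and 11.89 ± 0.17 in WT (SD, n = 6 each), and where its probes lie relative to the replaced sequence was not analysed here. Defining markers of the labelled tissue were bright, with Omp, the marker of mature olfactory neurons, at 12.90 ± 0.07 in both genotypes, and Cyp2g1, a cytochrome P450 of sustentacular cells, averaging 12.85 ± 0.11 over the H2be-KO arrays and 12.77 ± 0.05 over the WT arrays (SD, n = 6 each). H2be-KO replicates 1 and 6 stood apart in Amelx, an enamel protein gene of teeth, at 11.87 and 11.66, against 5.11 to 5.70 in the other H2be-KO arrays and 5.34 to 6.03 in WT. WT replicate 4 held the highest signal of all 12 arrays for 4 of the 7 genes (Nectin1, Nectin2, Cdh1 and Afdn) and the lowest for Nectin3. Because whole tissue was measured, fewer cells of a type and less RNA per cell cannot be told apart.

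Promoter sequence at RefSeq start sites (GRCm38.p6) was at hand for 4 of the 7 genes, and not for Nectin1, Cdh1 or Cdh2. The 250 bases before the start site used are shown for Nectin3 and Nectin2, whose roles in the mosaic are given above. Capitals mark GC boxes (GGGCGG, either strand) and the Snail-type E-box (CAGGTG, either strand). The Nectin3 window lies at chr16:46496968-46497217 and the Nectin2 window at chr7:19749574-19749823, both on the minus strand. For Nectin3 this start lies 1568 bases inside the outer boundary of the annotated gene, whereas for Nectin2 it is the boundary itself.
Nectin3: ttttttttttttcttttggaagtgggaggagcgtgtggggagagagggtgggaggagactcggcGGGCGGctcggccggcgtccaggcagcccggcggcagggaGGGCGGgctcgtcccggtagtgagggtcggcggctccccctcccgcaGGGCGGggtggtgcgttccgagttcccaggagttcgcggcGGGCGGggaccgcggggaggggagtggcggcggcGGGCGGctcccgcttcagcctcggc
Nectin2: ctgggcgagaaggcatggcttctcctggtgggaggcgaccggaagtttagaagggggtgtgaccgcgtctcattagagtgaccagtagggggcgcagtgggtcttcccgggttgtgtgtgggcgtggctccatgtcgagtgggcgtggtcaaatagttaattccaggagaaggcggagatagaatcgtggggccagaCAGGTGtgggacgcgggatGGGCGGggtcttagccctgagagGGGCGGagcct

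The Nectin3 window held 5 GC boxes, 30 CG dinucleotides and no E-box of this type, whereas the Nectin2 window held 2 GC boxes, 16 CG dinucleotides and 1 such E-box. The window of Afdn, whose start site used lies 150 bases inside the gene's boundary, held 4 GC boxes and 51 CG dinucleotides, and that of Nectin4 held none of the GC boxes and 3 CG dinucleotides. A GC box was found in 32.7% of all 32851 promoter windows of this length and the E-box in 17.2%, and the median number of CG dinucleotides was 6. A match is a description of the letters and not of a bound site.

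Nectin1, which binds Nectin3 and Nectin4 and is also known as an entry receptor of herpes simplex virus, was lower in every H2be-KO sample. Its signal was 6.80, 6.69, 6.82, 6.62, 6.66 and 6.87 in H2be-KO replicates 1 to 6, against 7.04, 7.07, 7.25, 7.30, 7.29 and 7.28 in WT replicates 1 to 6. The groups did not overlap, and 0.17 separated the highest H2be-KO array from the lowest WT array. Nectin1 averaged 6.74 ± 0.10 in H2be-KO and 7.21 ± 0.12 in WT (SD, n = 6 each), a difference of -0.46 (standard error 0.08), or 0.725 of the WT signal. It was the dimmest of the 7 genes in both genotypes. In every array its signal lay below the median of the array, medians being 7.84 to 7.90, and its detection above background was not tested. A difference of at least this size in either direction was seen in 0.615% of the 28151 probe sets tested. Nectin1 was the 1 gene of the 7 with an unadjusted limma p under 0.05 and the 1 gene whose H2be-KO arrays all lay below WT. Over all probe sets tested, 5.55% had such a p, of which 1.77% of all were lower and 3.78% higher in H2be-KO, and 0.0888% had every H2be-KO array below every WT array. These shares stand beside the count only as its background. Nectin1 was chosen for this pattern, so neither its p nor its separation from WT is a test of it. The counts behind them, 1065 higher and 498 lower, depended on scaling and were 827 and 899 after quantile normalization and 815 and 699 after median centring.

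**Figure D1:**
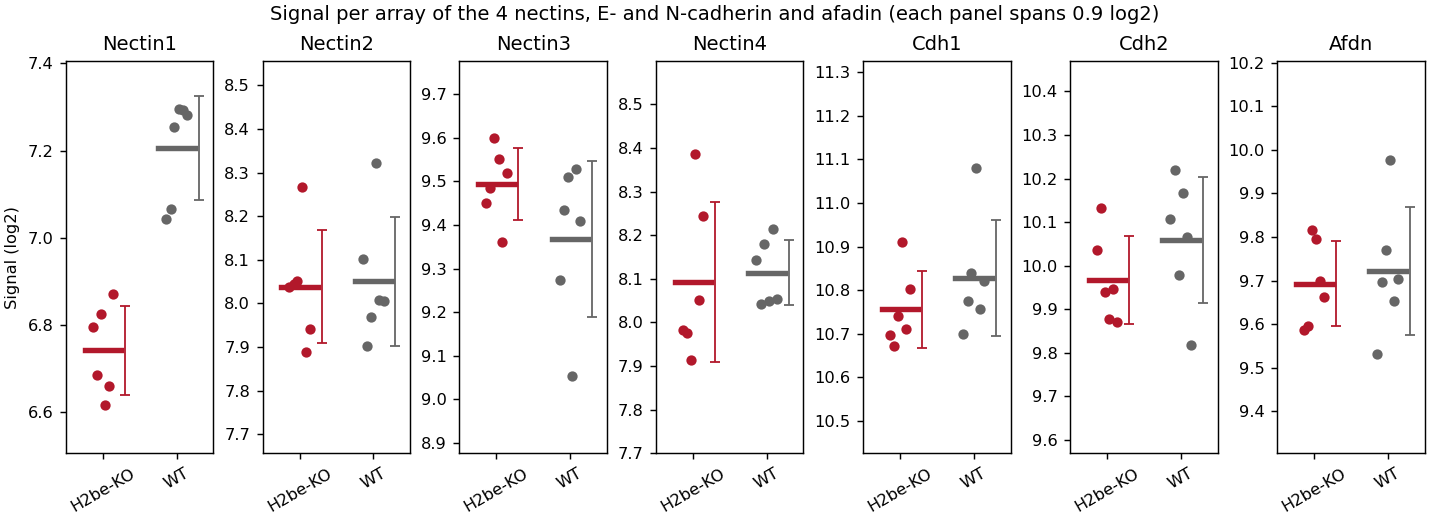
Signal (log2) of each gene in every array, 1 point per array, for H2be-KO (red, left) and WT (grey, right), thick bars giving means and thin bars 1 SD to each side, in panels that span the same range of log2 units. The Nectin1 groups are separated, at 6.62 to 6.87 in H2be-KO and 7.04 to 7.30 in WT, and the groups of the other 6 genes overlap.

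The Nectin1 difference was also computed with arrays dropped and with the scaling changed. These values come from the arrays in which Nectin1 was chosen and describe it without adding separate support. The difference lay between -0.50 and -0.44 when each array was left out in turn, and without the H2be-KO arrays of high Amelx it was -0.51, with 4 of 4 H2be-KO arrays below every WT array. It was -0.46 after quantile normalization and -0.48 after median centring, and in both all 6 H2be-KO arrays stayed below WT.

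Among the marker lists, the means of horizontal basal cells and of squamous epithelium fell most in H2be-KO. Their part in the Nectin1 result was not tested. Respiratory ciliated markers averaged 9.81 ± 0.10 in H2be-KO and 9.87 ± 0.11 in WT (SD, n = 6 each), and endothelial markers 7.65 ± 0.20 and 7.68 ± 0.14. All other marker lists had higher means in H2be-KO. The mean signal of 8 horizontal basal cell markers, which mark the reserve stem cells of the epithelium, was 8.10 ± 0.19 in H2be-KO and 8.30 ± 0.29 in WT (SD, n = 6 each), with ranges of 7.92 to 8.36 and 7.93 to 8.74 that overlapped. Of these 8 probe sets, which all lay above the filter, 1 was called lower and none higher. WT replicate 4 had the highest basal score, 8.74, and the other WT arrays lay at 7.93 to 8.42. Markers of squamous epithelium averaged 6.94 ± 0.17 in H2be-KO and 7.16 ± 0.41 in WT (SD, n = 6 each), ranging over 6.75 to 7.15 and 6.85 to 7.92, with none of 8 probe sets called and Krt6a, a keratin of stratified epithelium, not above the filter. For Sprr1a of that list, WT replicate 4 was at 10.45 and the other WT arrays at 7.56 to 9.67. The part of this array in the lower basal and squamous means was not tested. The sustentacular list read 10.69 to 10.88 in H2be-KO and 10.71 to 10.89 in WT, and the mature neuron list 10.75 to 10.98 in H2be-KO and 10.83 to 10.93 in WT. None of the 8 and 15 probe sets of these lists was called. Several of the 15 are of the single gene Cngb1, at WT means of 7.24 to 10.82. For globose basal cells and progenitors, which give rise to new neurons, the list has 10 probe sets, 4 of them of the single gene Hmgb2, and 3 of the 10 were called higher and none lower, and the score averaged 8.62 ± 0.18 in H2be-KO and 8.46 ± 0.15 in WT (SD, n = 6 each). Stroma (1 of 7), olfactory ensheathing glia (1 of 5) and immature neurons (1 of 8) also had a probe set called higher, and over all marker lists 6 of 94 were higher and 1 lower, or 7.45%, beside 5.55% over all probe sets. Within genotypes, Nectin1 correlated with the basal cell score at r = 0.34 (rho = 0.39, exact permutation p = 0.318 and 0.247, adjusted p = 0.539 and 0.576 over 56 relations, n = 12), and at r = 0.02 without the pair of arrays farthest from the median score.

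Nectin3 and Nectin4, the partners that Nectin1 binds, overlapped between genotypes. Nectin3, which sustentacular cells carry, was 9.45, 9.49, 9.60, 9.55, 9.36 and 9.52 in H2be-KO replicates 1 to 6, against 9.27, 9.43, 9.51, 9.05, 9.53 and 9.41 in WT replicates 1 to 6. Of the 6 H2be-KO arrays 2 exceeded every WT array, and WT replicate 4 was the lowest of all. Nectin3 averaged 9.49 ± 0.08 in H2be-KO and 9.37 ± 0.18 in WT (SD, n = 6 each), a difference of 0.13 (standard error 0.09) that shrank to 0.06 without WT replicate 4.

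Nectin4, an epithelial nectin, was 7.98, 7.97, 7.91, 8.39, 8.05 and 8.25 in H2be-KO, against 8.14, 8.04, 8.18, 8.05, 8.21 and 8.05 in WT. The H2be-KO arrays spread on both sides of WT, with 3 below and 2 above all WT arrays. Nectin4 averaged 8.09 ± 0.18 in H2be-KO and 8.11 ± 0.08 in WT (SD, n = 6 each), a difference of -0.02 (standard error 0.09).

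Nectin2, which olfactory neurons carry, was 8.04, 8.04, 8.05, 8.27, 7.89 and 7.94 in H2be-KO, against 8.10, 7.90, 7.97, 8.32, 8.01 and 8.01 in WT. In each genotype replicate 4 was the highest array, and the other arrays lay at 7.89 to 8.05 in H2be-KO and 7.90 to 8.10 in WT. Nectin2 averaged 8.04 ± 0.13 in H2be-KO and 8.05 ± 0.15 in WT (SD, n = 6 each), a difference of -0.01 (standard error 0.09).

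The cadherins and afadin differed by less than Nectin1 and overlapped between genotypes. E-cadherin (Cdh1) was 10.70, 10.67, 10.74, 10.91, 10.71 and 10.80 in H2be-KO, against 10.70, 10.78, 10.84, 11.08, 10.76 and 10.82 in WT. The lowest 2 arrays were H2be-KO, by a margin too small to show at this rounding for replicate 1, and WT replicate 4 was the highest. Cdh1 averaged 10.76 ± 0.09 in H2be-KO and 10.83 ± 0.13 in WT (SD, n = 6 each), a difference of -0.07 (standard error 0.08) that was -0.02 without WT replicate 4.

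N-cadherin (Cdh2), shared by neurons and sustentacular cells, was 10.04, 10.13, 9.94, 9.88, 9.95 and 9.87 in H2be-KO, against 10.11, 10.22, 9.98, 10.17, 10.07 and 9.82 in WT. No H2be-KO array lay outside the WT range, although 5 of 6 lay below the WT mean. Cdh2 averaged 9.97 ± 0.10 in H2be-KO and 10.06 ± 0.14 in WT (SD, n = 6 each), a difference of -0.09 (standard error 0.09) that was -0.06 without WT replicate 2 and -0.14 without WT replicate 6.

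Afdn, the adaptor that all nectins bind, was 9.59, 9.60, 9.82, 9.80, 9.70 and 9.66 in H2be-KO, against 9.53, 9.70, 9.77, 9.98, 9.65 and 9.70 in WT. All H2be-KO arrays fell within the WT range. Afdn averaged 9.69 ± 0.10 in H2be-KO and 9.72 ± 0.15 in WT (SD, n = 6 each), a difference of -0.03 (standard error 0.09).

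All 7 genes passed the filter on low signal, a mean above 5. The differences of the 6 genes other than Nectin1 ran from -0.09 to 0.13 with a median of -0.03, beside a median of 0.02 over all probe sets tested. The standard errors of all 7, at 0.08 to 0.09, were below the median of 0.11 over all probe sets. The signs of 3 of them were not stable, since Nectin2 was 0.01 without the H2be-KO arrays of high Amelx, Afdn was 0.03 with array weights, and both and Nectin4 reached values above 0 when single arrays were left out.

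**Figure D2:**
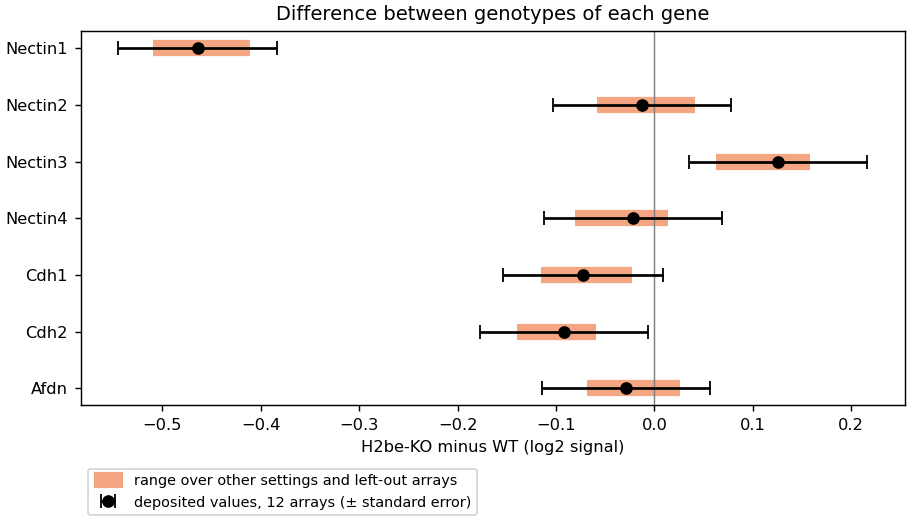
Difference between H2be-KO and WT (log2 signal) of each gene as deposited (black points, bars 1 standard error) with the range over the other settings and over arrays left out 1 at a time (orange). Nectin1 stays between -0.51 and -0.41, while the bands of Nectin2, Nectin4 and Afdn cross 0.

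The genes of the wider junction machinery were taken from lists written for this pathway, and their calls are given beside those over all probe sets. Of 112 probe sets for 105 genes outside the 7, 3 were called lower and 1 higher in H2be-KO by the unadjusted p, or 3.57%, beside 5.55% over all probe sets. Without WT replicate 6 these counts were 6 lower and 9 higher, beside 1554 lower and 2265 higher over all probe sets. After Benjamini-Hochberg adjustment in limma 0 passed, with a smallest adjusted p of 0.753, and the median difference was 0.03. The exact permutation test per probe set called 5 lower and 2 higher, beside 572 lower and 1121 higher over all probe sets.

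Among cytoplasmic partners of nectins and afadin, 1 of 12 probe sets was lower and none higher. This was Rapgef1, an exchange factor that activates the small GTPase Rap1, which was 8.19, 8.13, 7.84, 8.02, 7.95 and 7.92 in H2be-KO, against 8.29, 8.40, 8.10, 8.44, 8.43 and 8.02 in WT. The lowest 3 arrays were all H2be-KO. Rapgef1 fell by 0.27 on the log2 scale (standard error 0.10, exact permutation p = 0.0238, limma adjusted p = 0.753, n = 6 each), and it kept an unadjusted limma p of at most 0.0335 whichever array was left out. A further probe set of Rapgef1 differed by -0.13 and was not called, and the mean of both probe sets, at -0.20, was.

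Of 20 probe sets for other classical cadherins and close relatives, 1 was lower and 1 higher. Cdh4, or R-cadherin, was 8.16 to 8.62 in H2be-KO with a mean of 8.37 ± 0.18, against 8.37 to 8.77 in WT with a mean of 8.60 ± 0.13, and 3 of 6 H2be-KO arrays were under the WT minimum (difference -0.23, standard error 0.10, exact permutation p = 0.0346, limma adjusted p = 0.753, n = 6 each). The call of Cdh4 ended without H2be-KO replicate 4 or 5 and without WT replicate 4, 5 or 6, where the difference was -0.23 to -0.19, and with array weights, where it was -0.14. Cdh18, a neural cadherin, averaged 7.44 ± 0.31 in H2be-KO and 7.04 ± 0.34 in WT, and 2 of 6 H2be-KO arrays lay above every WT array (difference 0.40, standard error 0.17, exact permutation p = 0.0519, limma adjusted p = 0.753, n = 6 each). A further probe set of Cdh18 differed by 0.22 and was not called, nor was the mean of both, at 0.31, and the call of Cdh18 ended without H2be-KO replicate 1 or 4 and without WT replicate 2 or 3, where the difference was 0.29 to 0.36.

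In the desmosome list, 1 of 12 probe sets was lower and none higher. Pkp3, a plakophilin of desmosomal plaques, averaged 8.43 ± 0.14 in H2be-KO and 8.63 ± 0.10 in WT (SD, n = 6 each), with 3 of 6 H2be-KO arrays under the WT minimum (difference -0.20, standard error 0.08, exact permutation p = 0.0216, limma adjusted p = 0.753). The call of Pkp3 ended without H2be-KO replicate 1, 3 or 6 and without WT replicate 2, 4 or 5, where the difference was -0.19 to -0.16. Without both H2be-KO arrays of high Amelx, neither Cdh18, at 0.38, nor Pkp3, at -0.16, was called.

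No probe set was called in the remaining lists. Among catenins and linkers, 0 of 10 were called, and beta-catenin (Ctnnb1), which binds the cadherin tail, averaged 12.07 ± 0.07 in H2be-KO and 12.02 ± 0.10 in WT (SD, n = 6 each), whereas plakoglobin (Jup) averaged 9.82 ± 0.12 in H2be-KO and 9.95 ± 0.15 in WT. Among nectin-like molecules and nectin receptors, 0 of 8 were called, and Cadm1, a nectin-like molecule, averaged 10.03 ± 0.14 in H2be-KO and 9.96 ± 0.12 in WT. Among tight junction and polarity genes, 0 of 35 were called, with Cldn10, a claudin, at 11.17 ± 0.14 in H2be-KO and 11.18 ± 0.18 in WT. Among 9 probe sets for proteases that cleave nectins and cadherins and other turnover genes, and among 6 for repressors of cadherin genes such as Twist1, at 8.59 ± 0.18 in H2be-KO and 8.68 ± 0.11 in WT, 0 were called.

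**Figure D3:**
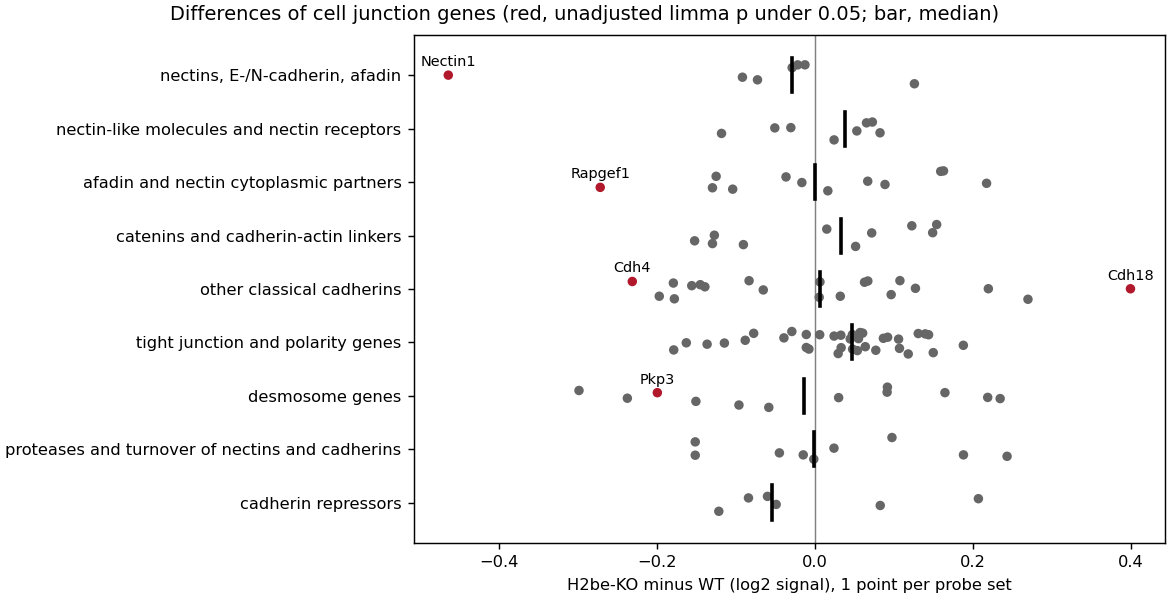
Difference between H2be-KO and WT (log2 signal) of each probe set in the 7 genes (top row) and in the 8 lists of other junction genes, with the list median as a black bar and probe sets of unadjusted limma p under 0.05 in red and named. Nectin1 at -0.46 lies to the left of every other point, and 1 called probe set, Cdh18 at 0.40, lies to the right of 0. Nectin1 was chosen for its lower signal, so its place and colour carry no test.

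Variation from sample to sample was also set against markers of cell types. After removal of the genotype means, 56 relations were computed over the 12 arrays, 35 between a gene and the mean signal of a marker list and 21 between pairs of the 7 genes. At an adjusted p under 0.05, 0 passed by Pearson's r and 1 by Spearman's rho, and 10 had an unadjusted p under 0.05 for r. All of these share array, normalization and dissection.

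Cdh2 had the smallest p, and ran opposite to the sustentacular markers (r = -0.86, exact permutation p = 0.000945, adjusted p = 0.0529; rho = -0.88, exact permutation p = 0.000677, adjusted p = 0.0379, n = 12). The relation was present in each genotype, at r = -0.87 in H2be-KO and -0.89 in WT, and was r = -0.82 without the 2 arrays farthest from the median score. It weakened to r = -0.49 after quantile normalization. With mature neuron markers Cdh2 had a positive r that did not pass after adjustment (r = 0.61, rho = 0.66, exact permutation p = 0.0188 and 0.0289, adjusted p = 0.150 and 0.231, n = 12), at r = 0.74 in H2be-KO and 0.65 in WT.

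No relation of Cdh1 passed after adjustment. Its r was positive with horizontal basal cell markers (r = 0.82, rho = 0.78, exact permutation p = 0.00298 and 0.00816, adjusted p = 0.0556 and 0.114, n = 12), at r = 0.90 in H2be-KO and 0.79 in WT, and with markers of respiratory ciliated cells (r = 0.73, rho = 0.71, exact permutation p = 0.00686 and 0.0184, adjusted p = 0.0768 and 0.172, n = 12), at r = 0.70 in H2be-KO and 0.77 in WT. It was negative with mature neuron markers (r = -0.67, rho = -0.77, exact permutation p = 0.00442 and 0.00583, adjusted p = 0.0618 and 0.109, n = 12), at r = -0.91 in H2be-KO and -0.61 in WT. Without the 2 arrays farthest from the median score these were r = 0.80, 0.65 and -0.54. After quantile normalization the relation with mature neuron markers was r = -0.28 and the others were 0.72 and 0.79. With sustentacular markers Cdh1 had r = 0.47 (rho = 0.72, exact permutation p = 0.143 and 0.0141, adjusted p = 0.446 and 0.158, n = 12). This was r = 0.72 in H2be-KO and 0.31 in WT, and 0.61 without the 2 arrays farthest from the median score.

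**Figure D4:**
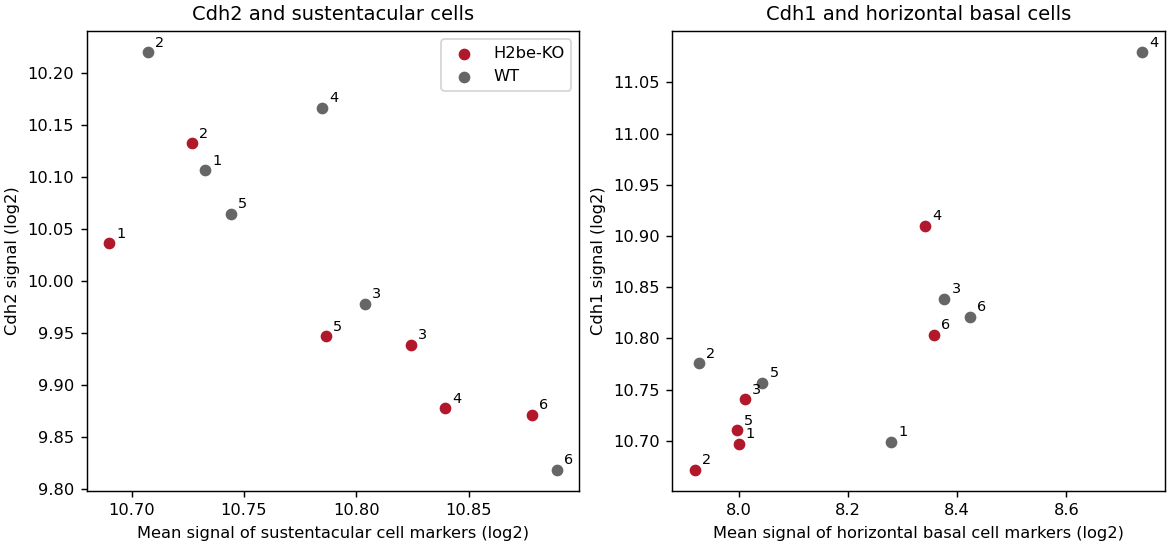
Signal (log2) of Cdh2 against the mean signal of sustentacular cell markers (left) and of Cdh1 against that of horizontal basal cell markers (right), 1 point per array with its replicate number, for H2be-KO (red) and WT (grey). Cdh2 goes down and Cdh1 goes up along the marker score in both genotypes, at r = -0.86 and 0.82 with genotype means removed.

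Among the nectins, an unadjusted p under 0.05 for r was seen for Nectin2 with respiratory ciliated markers (r = 0.72, rho = 0.51, exact permutation p = 0.0129 and 0.114, adjusted p = 0.121 and 0.478, n = 12) and with horizontal basal markers (r = 0.63, rho = 0.43, exact permutation p = 0.0392 and 0.201, adjusted p = 0.220 and 0.511, n = 12). It was also seen for Nectin4 with mature neuron markers (r = -0.75, rho = -0.67, exact permutation p = 0.0229 and 0.0345, adjusted p = 0.161 and 0.242, n = 12), at r = -0.92 in H2be-KO and 0.17 in WT. Without the 2 arrays farthest from the median score these were r = 0.42, 0.25 and -0.41. Nectin2 had a negative r with mature neuron markers (r = -0.48, rho = -0.09, exact permutation p = 0.118 and 0.786, adjusted p = 0.413 and 0.877, n = 12). Nectin3 had r = 0.15 with sustentacular markers (rho = 0.20, exact permutation p = 0.659 and 0.53, adjusted p = 0.772 and 0.785, n = 12).

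Among the pairs, Cdh1 and Afdn had the smallest p (r = 0.87, rho = 0.81, exact permutation p = 0.00224 and 0.00409, adjusted p = 0.0556 and 0.109, n = 12), at r = 0.62 in H2be-KO and 0.97 in WT, and r = 0.68 without the 2 arrays farthest from the median. Nectin2 and Cdh1 had r = 0.70 (exact permutation p = 0.0327, adjusted p = 0.204, n = 12) but rho = 0.11 (exact permutation p = 0.750, adjusted p = 0.877), and r was -0.49 without the 2 farthest arrays, so this relation rests on those samples. Nectin1 had an unadjusted p under 0.05 with none of the marker lists and none of the other 6 genes.

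Over the 21438 other probe sets of 1 symbol tested, the closest in pattern across the 12 arrays, by Pearson's r with genotype means removed and given as a description, were Slc5a9 (r = 0.92) and Mapk7 (0.88) for Nectin1. They were Zfp618 (0.95) and Slc6a20a (0.92) for Nectin2, Cnpy3 (0.91) and Spop (0.89) for Nectin3, and Lnx1 (0.90) and Pgm1 (0.90) for Nectin4. For Cdh1 they were Btn2a2 (0.96) and Dnah3 (0.95), for Cdh2 Lrtm1 (0.97) and 2210409E12Rik (0.97), and for Afdn Zfhx3 (0.95) and Kcnj15 (0.95). Between genotypes Mapk7, a protein kinase, differed by -0.19 and Slc5a9, a sugar transporter, by 0.08, beside -0.46 for Nectin1.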

How the data were processed

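RNA from whole MOE was applied to arrays. As the methods describe, the authors checked scanner files for outliers with arrayQualityMetrics, summarised probes with IterPLIER and normalised arrays by sketch-quantile in Affymetrix Expression Console (their versions are not stated in the sources read). Each array thus has a deposited log2 signal for every probe set, and shifts shared by most transcripts would have been removed. Groups came from sample titles. Where nothing says more, p-values measure the spread between samples, each from a pair of mice. Any pair of arrays shared at most 0.0276% identical values.

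Of 28944 experimental probe sets, 21789 had 1 gene symbol in the platform annotation, 1621 several and 5534 none, and 6612 control probe sets were left out. Each of the 7 genes had 1 probe set. Older symbols were matched through RefSeq synonyms. With R 4.3.3 and limma 3.58.1, genotype was fitted with lmFit and eBayes to the 28151 probe sets of mean log2 signal above 5, with Benjamini-Hochberg adjustment, and tested on simulated data. Standard errors are limma's. Exact permutation p-values for single genes are two-sided over 924 choices of 6 of 12 arrays (smallest 0.0022). Correlations used genotype-centred values and all 518400 arrangements of arrays within genotypes, two-sided.

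The 7 genes, lists and tests were chosen with earlier results of these data known. All 7 genes are named, up to 4 called probe sets of each junction list by p or otherwise some of its brightest 2, and for each gene the pair closest in pattern; of the marker lists, genes are named where a result turns on them. Alternatives covered scaling, a floor, filters, the replicate block, a Y-linked covariate, array weights, moderation, exact tests, averaging by symbol and leaving out arrays.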

Additional observations from a re-analysis of the deposited data

Results flagged for a closer look

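Cdh1 in WT replicate 4, at 11.08, lay far from the other 5 WT arrays, the nearest of which was 10.84 (gap over range 0.633, above Dixon's critical value for 6 samples). It was the only flag among 32 groups of 6 arrays examined, of which chance flags about 1 in 20. The same array also had the highest Nectin1, Nectin2 and Afdn and the lowest Nectin3 signal of the 12. Its mean correlation with the other arrays, 0.963, was the lowest of the 12. It had the lowest stroma score, 10.15, and the highest horizontal basal and respiratory ciliated scores, 8.74 and 10.025. The cause was not tested.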

How the results depend on the processing

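The labels do not say whether replicate numbers mark pairs, and the main tests treated the arrays as unpaired. Same-numbered arrays deviated together at correlations of 0.025 to 0.592, and 4 of 6 H2be-KO arrays correlated best with the WT array of their own number. Whether the numbers mark a shared litter, day or batch could not be told. Each replicate number has an array of each genotype, so a block on this number cannot change the 7 differences and says nothing about their stability. With this block 2039 probe sets were called higher and 951 lower in H2be-KO, and 3 and 5 junction probe sets. The counts of calls varied with the processing. Array weights gave 2694 higher and 1405 lower calls, of which 8 and 7 fell on junction probe sets. After quantile normalization 899 were lower in all and 7 among junction probe sets. Higher junction calls were 5 with trend and robust moderation, 2 by exact tests, and 0 with probe sets averaged by symbol or without the H2be-KO arrays of high Amelx, and lower ones were 5 by exact tests. With each array left out, calls ran from 513 (without H2be-KO replicate 5; 589 without replicate 3) to 2265 (without WT replicate 6; 2233 without H2be-KO replicate 4) higher and 312 (without WT replicate 4; 325 without H2be-KO replicate 5) to 1554 (without WT replicate 6) lower, and junction calls from 1 to 9 higher (9 without WT replicate 6, 4 when H2be-KO replicate 4 was dropped, 2 for each of H2be-KO replicates 1, 2 and 3) and 1 to 6 lower (1 without WT replicate 4 or 5, 5 when H2be-KO replicate 2 was dropped, 6 without WT replicate 6 or H2be-KO replicate 4). None of the 7 differences moved by over 1 SD of its arrays under any setting run, although the block setting could not move them. After median centring 5 relations between arrays passed the adjusted threshold. These were Cdh1 with Afdn and with the horizontal basal, respiratory ciliated and mature neuron scores, and Cdh2 with the sustentacular score. With an array left out 0 to 2 passed (2 without H2be-KO replicate 3 or WT replicate 1, 1 without H2be-KO replicate 6 or WT replicate 4). The cause of these changes was not tested. The number of arrays limits the precision, and signals near log2 5 lie near background.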
